A study of Mus musculus with 20 samples.

Results

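The small intestine was one of 5 tissues of wild-type (WT) and Nsun6-knockout (KO) mice whose transcriptomes were compared by RNA-seq of poly(A) RNA. It gave 4 of the 20 libraries, namely WT replicates 1 and 2 and KO replicates 1 and 2, found by the tissue named in the headers of the count columns. The mice were 8-week-old females. In the KO strain, exons 3 and 4 of Nsun6, an RNA methyltransferase that makes 5-methylcytosine, had been deleted with Cas9 in C57BL/6J eggs, so that the gene was lost in every cell of the body. The tissues were dissected, snap-frozen and ground. The sources used here do not say which stretch of the small intestine was taken or whether the gut wall was divided into layers. The libraries held 32121286 and 28391003 counts on genes in WT replicates 1 and 2 and 27240407 and 26414043 in KO replicates 1 and 2. KO was compared with WT between the libraries that share a replicate number, called pair 1 and pair 2, because the libraries numbered 1 carried transcripts of the distal and those numbered 2 transcripts of the proximal small intestine. With 1 library against 1, a pair gives no test, so that the ratios within a pair are descriptions. The study calls the replicates biological, but the sources used here do not say whether they came from separate animals, and p-values measure only the spread between these libraries.

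The small intestine is a tube of layers. A single sheet of epithelium, made of absorptive enterocytes, mucus-making goblet cells, Paneth cells, hormone cells and chemosensory tuft cells, faces the lumen. Beneath it lie connective tissue and immune cells, in places gathered into lymphoid follicles, and outside these run sheets of smooth muscle with the neurons and glia of the enteric nervous system between them. In RNA from whole tissue each layer contributes in proportion to its amount in the piece, so that fewer cells of a type and less RNA per cell cannot be told apart. Levels are given as CPM, counts scaled to a common library size after TMM normalization, in the order WT against KO.

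The position along the gut was read from 11 genes of the proximal and 11 of the distal small intestine. The distal genes summed to 11033 against 12108 CPM in pair 1 and 508 against 641 in pair 2, and the proximal genes to 812 against 716 CPM in pair 1 and 6689 against 5896 in pair 2. Fabp6, the bile acid binding protein of the ileum, was at 6703 against 5902 CPM in pair 1 and 0.234 against 0.401 in pair 2. Pdx1, a transcription factor of the duodenum, had 0 counts in both libraries numbered 1 and 91.8 and 63.3 CPM in WT and KO replicate 2, and Osr2 showed the opposite order, with 67.6 and 127 CPM in the libraries numbered 1 and 0 counts in those numbered 2. The number thus went with position in both genotypes, and Pearson's r of the log2 CPM of all genes was 0.924 between the libraries of pair 1 and 0.961 between those of pair 2, against 0.885 between the WT and 0.876 between the KO replicates.

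The match in position was not complete, and 3 of the libraries stood apart in other ways. WT replicate 2 carried transcripts of the stomach and of Brunner glands, the mucous glands of the first duodenum. Tff2 stood at 2579 CPM there and at most 2.61 in the others, Gkn3 at 1800.2 and at most 3.05, and Muc6, a mucin of these glands, at 496 and at most 1.36. KO replicate 1 carried transcripts of heart muscle. Of 20 genes of heart muscle, chosen after a few of them had been seen, the median level in KO replicate 1 was 0.632% of the mean level in the heart libraries of the series, against 0.0136%, 0.0158% and 0.0203% in WT replicate 1, WT replicate 2 and KO replicate 2. Myl2, a myosin light chain of the ventricle, was at 0.972 against 160.2 CPM in pair 1 and 2.19 against 1.64 in pair 2. The third library that stood apart was WT replicate 1, in which the 15 B cell genes summed to 547 CPM, against 42.7 in WT replicate 2, 34 in KO replicate 1 and 113 in KO replicate 2. Results that rest on these libraries are given below pair by pair.

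**Figure D1:**
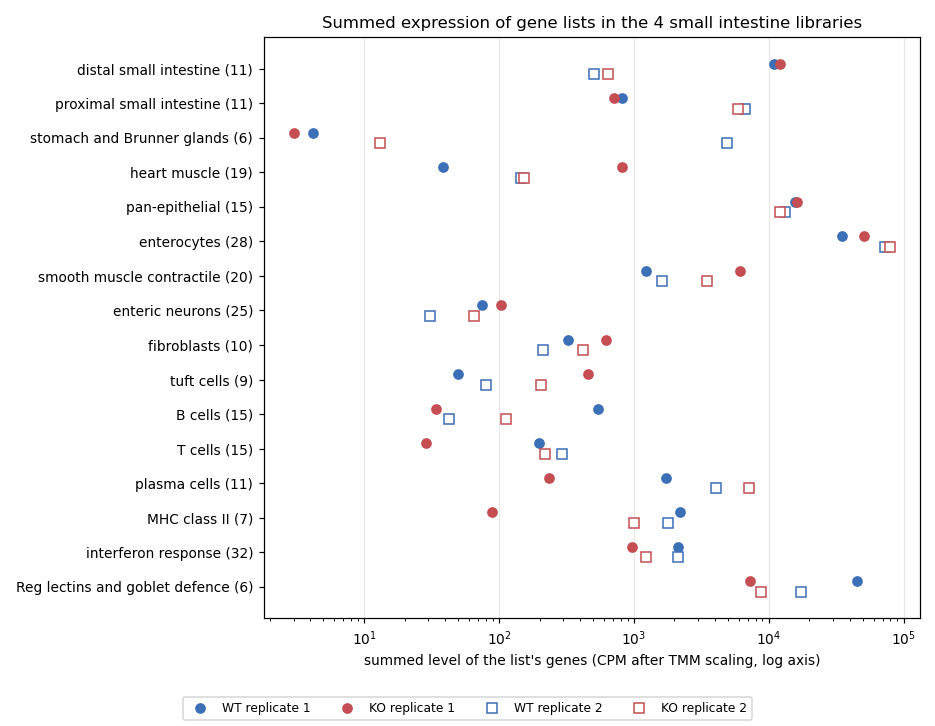
Summed level of 16 gene lists (number of genes in brackets) in each small intestine library, in CPM after TMM scaling on a log axis; filled circles are replicate 1, open squares replicate 2, blue is WT and red is KO. The distal and proximal lists separate the replicate numbers in both genotypes, the stomach list is high in WT replicate 2 and the heart list in KO replicate 1, and both red symbols lie to the right of both blue ones for smooth muscle, fibroblasts and tuft cells.

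Nsun6 (ENSMUSG00000026707, chr2:14995131-15055069 of GRCm38, minus strand) was at 9.67 against 9.13 CPM in pair 1 and 6.09 against 5.09 in pair 2. KO was lower in both pairs by less than the libraries of 1 genotype differed, and the log2 fold change was -0.15 (standard error 0.52), or 0.22 without WT replicate 1 and 0.18 without KO replicate 2. The counts are given per gene and not per exon, so that they do not check the genotype of a library.

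The first question was which genes differed between genotypes at both positions. Of 17680 genes that passed edgeR's filter on low counts, 596 (3.37%) were at least 2-fold higher and 268 (1.52%) at least 2-fold lower in KO in both pairs. A change of this size in opposite directions was seen for 149 genes (0.843%) higher in pair 1 and lower in pair 2, and for 291 (1.65%) the other way round. Pair 1 alone had 1897 genes higher (10.7%) and 2013 lower (11.4%), and pair 2 had 1791 higher (10.1%) and 1097 lower (6.2%). At any size, 4921 genes (27.8%) were higher and 4514 (25.5%) lower in both pairs, 4087 (23.1%) were higher in pair 1 and lower in pair 2, and 4122 (23.3%) the reverse. The r of the ratios of both pairs across genes was 0.0962, where genes are not independent replicates. The median log2 ratio of all genes was 0.01 in each pair. Between the groups, without regard to number, both KO libraries lay above both WT libraries for 2411 genes (13.6%) and those of WT above both of KO for 2044 (11.6%).
Part of the genes at least 2-fold in both pairs also differed between the replicate numbers, which went with position. Of all genes, 2637 (14.9%) differed at least 2-fold between the replicates in the same direction in both genotypes, against 137 (23%) of the 596 and 92 (34.3%) of the 268.

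None of these genes was called by edgeR's quasi-likelihood test, which took the spread between the replicates of a genotype, and with it the difference in position, as the error. With a false discovery rate of 0.1 (Benjamini-Hochberg) and a minimum change of 2-fold, 0 genes (0%) were called higher and 0 (0%) lower, and the smallest adjusted p of the table, rounded, was 1. The unadjusted p was under 0.05 for 313 genes higher (1.77%) and 109 genes lower (0.617%) in KO. DESeq2, the tool named in the methods of the study, called 36 genes higher (0.242% of 14882 with an adjusted p) and 15 lower (0.101%). Of these, 32 and 14 were at least 2-fold in the same direction in both pairs. Among the 36 were 6 contractile genes of smooth muscle (Myh11, Kcnmb1, Synpo2, Actg2, Des and Synm), 2 tuft cell genes, among them Pou2f3, and the fibroblast gene Fn1, but also 7 heart muscle genes (Actc1, Mb, Myh6, Myl3, Myl2, Ckm and Fabp3). Among the 15 were the interferon-induced genes Ifit1bl1, Ubd, Gbp6 and Nlrc5, and the germinal centre gene Gcsam. A4gnt, Wfdc18, Mucl3 and Cpn2, also called lower, were highest in WT replicate 2, the library with stomach and Brunner gland transcripts.

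**Figure D2:**
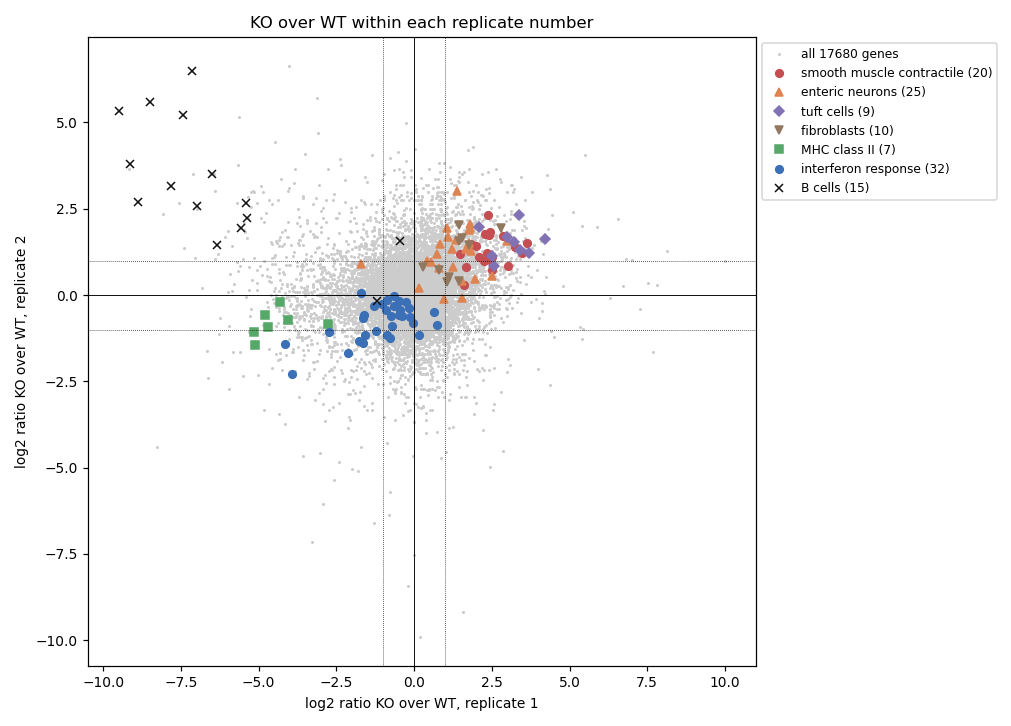
Log2 ratio of KO over WT for every gene in replicate 1 (x axis) and replicate 2 (y axis), with 7 gene lists marked; dotted lines are 2-fold. All 20 contractile genes of smooth muscle and all 9 tuft cell genes lie at the upper right, all 7 MHC class II genes at the lower left, and 14 of the 15 B cell genes at the upper left.

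Genes of the muscle layer were higher in the KO small intestine at both positions. All 20 genes of the contractile apparatus of smooth muscle were counted in every library. All 20 were higher in KO in both pairs (27.8% of all genes), 15 of them at least 2-fold in both, against 3.37% of all genes. Their median log2 ratio was 2.38 in pair 1 and 1.21 in pair 2, and their summed level was 1222 against 6117 CPM in pair 1 and 1627 against 3506 in pair 2. Both KO libraries lay above both WT libraries for 19 of the 20 (13.6% of all genes), and 18 had an unadjusted p under 0.05 in edgeR's test (1.77% of all genes).
Myh11 (ENSMUSG00000018830, chr16:14194535-14291372), the myosin heavy chain of smooth muscle, was at 71.1 against 385 CPM in pair 1 and 87.8 against 313 in pair 2. That is higher by 5.42-fold in pair 1 and 3.56-fold in pair 2, and the groups did not overlap. The log2 fold change was 2.13 (standard error 0.35), and the adjusted p was 1 by edgeR and 0.0129 by DESeq2. Actg2, the gamma actin of the gut muscle, was at 47.7 against 598 CPM in pair 1 and 79.6 against 225 in pair 2. Acta2, the actin of vascular and other smooth muscle, was at 54.4 against 267 CPM in pair 1 and 116 against 395 in pair 2. Actg2 was highest in KO replicate 1, whereas Acta2 was highest in KO replicate 2. Myl9, a regulatory myosin light chain with the highest level per length of the list, was at 83.5 against 426 CPM in pair 1 and 121 against 282 in pair 2. Des, the intermediate filament protein desmin, was at 70.4 against 666 CPM in pair 1 and 110.2 against 291 in pair 2. Kcnmb1, a subunit of the large-conductance potassium channel, was even in size across positions, with 1.20 against 6.49 CPM in pair 1 and 1.29 against 6.65 in pair 2. Synpo2, Synm, Cnn1, Flna, Smtn, Lmod1, Pcp4, Tagln and Myocd were the other members at least 2-fold higher in both pairs. Des, Synm, Tagln, Smtn, Mylk and Pcp4 share exon bases with other genes. Myocd, the coactivator that drives this gene programme, stood at 0.458 and 0.156 CPM in the WT and 1.40 and 0.441 CPM in the KO libraries, a low level. The smallest ratio in pair 2 was that of Tpm1, a tropomyosin of all muscle, at 320.4 against 973 CPM in pair 1 and 359 against 442 in pair 2.

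Heart muscle shares part of this apparatus, and KO replicate 1 held heart transcripts. If each gene came with heart RNA at the 0.632% of its heart level that the heart genes showed, heart RNA would make up 16.1% of the level of Myocd in KO replicate 1, 9.44% of that of Tpm1, 1.46% of Smtn and 1.08% of Des, and less than that for each of the other 16 genes, with 0.0233% for Myh11 and 0.000868% for Actg2. In pair 2, where the heart genes stood at 0.0158% (WT) and 0.0203% (KO) of their heart level, the 20 contractile genes had the median log2 ratio of 1.21 given above. The part of heart RNA in the result for the whole list was not tested.
The start of transcription could be read for 16 of the 20 genes. The binding site of serum response factor, the CArG box, was searched on both strands of the 250 bases before each start. It was present in 1 of the 16 (6.25%), Myl9, and in 439 of 27025 genes with such a sequence (1.62%). The stretch of Myl9 is shown because it carries the one match, in capitals, which begins 161 bases before the start (chr2:156775214-156775463, plus strand, RefSeq on GRCm38.p6).
Myl9: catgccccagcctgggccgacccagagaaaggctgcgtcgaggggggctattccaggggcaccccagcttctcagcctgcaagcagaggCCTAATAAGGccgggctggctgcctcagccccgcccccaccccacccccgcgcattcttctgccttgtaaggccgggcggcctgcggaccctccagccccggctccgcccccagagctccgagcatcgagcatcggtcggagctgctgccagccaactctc

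Receptors and channels of the muscle were less uniform. Of 14 genes listed, 12 passed the filter, and 10 were higher in both pairs (27.8% of all genes), with a median of 1.01 in pair 1 and 1.22 in pair 2. Chrm2, a muscarinic receptor through which nerves contract the gut, was at 7.78 against 29.3 CPM in pair 1 and 9.17 against 21.4 in pair 2. Cacna1c, the main calcium channel of smooth muscle, was at 3.63 against 14.4 CPM in pair 1 and 1.52 against 5.05 in pair 2. Kcnma1, the potassium channel that Kcnmb1 accompanies, was at 2.26 against 7.28 CPM in pair 1 and 1.29 against 3.41 in pair 2. These 3 were at least 2-fold higher in both pairs (3.37% of all genes). In KO replicate 1, heart RNA at 0.632% would make up 9.33% of Cacna1c, 2.9% of Chrm2 and 0.0172% of Kcnma1. The 2 members with the highest level per length differed by less than 1.5-fold in each pair. Pde5a, which breaks down cyclic GMP, was at 282 against 328 CPM in pair 1 and 104 against 107 in pair 2. Rock1, a kinase that sustains contraction, was at 156 against 146 CPM in pair 1 and 133 against 97.3 in pair 2. Gucy1b1, a subunit of the enzyme that makes cyclic GMP in response to nitric oxide, was at 4.72 against 7.96 CPM in pair 1 and 4.57 against 12.4 in pair 2, and the groups did not overlap. Of 7 genes of the pacemaker cells of Cajal and of the PDGFRA cells that lie between nerve and muscle, 6 were higher in both pairs (27.8% of all genes). Kit was at 10.7 against 24.9 CPM in pair 1 and 5.43 against 9.54 in pair 2. Ano1 was at 7.55 against 19.3 CPM in pair 1 and 9.37 against 13.8 in pair 2. Kcnn3, at least 2-fold higher in both, was at 0.629 against 4.24 CPM in pair 1 and 0.742 against 2.57 in pair 2.

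Most genes of enteric neurons were also higher in KO at both positions, at low levels. Of 30 listed, 25 passed the filter, and 22 were higher in both pairs (27.8% of all genes). At least 2-fold higher in both were 12 (3.37% of all genes). The median log2 ratio was 1.35 in pair 1 and 1.29 in pair 2. Both KO libraries lay above both WT libraries for 19 of the 25 (13.6% of all genes), and 6 had an unadjusted p under 0.05 with KO higher (1.77% of all genes).
Stmn2, a regulator of microtubules in neurons, was at 2.06 against 7.32 CPM in pair 1 and 1.68 against 6.65 in pair 2. Uchl1, an abundant neuronal ubiquitin hydrolase, was at 1.03 against 3.66 CPM in pair 1 and 0.976 against 3.77 in pair 2. Prph, an intermediate filament of peripheral neurons, was at 2.06 against 7.14 CPM in pair 1 and 1.68 against 4.93 in pair 2. In Stmn2 and Uchl1 the 2 WT libraries were close to each other and so were the 2 KO libraries, although they came from different positions. Other members, such as Elavl4 and Nos1 in WT and Chat in KO, differed more between the replicates of a genotype. Elavl4 was at 1.52 and 0.390 CPM in WT replicates 1 and 2. Chat, which makes acetylcholine and is also expressed by tuft cells, was at 0.944 against 7.96 CPM in pair 1 and 0.664 against 2.08 in pair 2. Nos1, which makes nitric oxide in inhibitory neurons, was at 0.601 against 1.68 CPM in pair 1 and 0.0781 against 1.12 in pair 2. Others at least 2-fold higher in both were Gal, Stmn3, Cartpt, Elavl4, Chrna3 and Elavl3. Vip, a peptide of inhibitory neurons, was at 3.49 against 10.4 CPM in pair 1 and 4.41 against 5.89 in pair 2. Tac1, the precursor of substance P with the highest mean level of the list, went the other way in pair 1, at 41.2 against 12.4 CPM in pair 1 and 2.38 against 4.53 in pair 2. Because of Tac1 the summed level of the list in WT replicate 1, 74.6 CPM, exceeded the 65 CPM of KO replicate 2.
Of 11 genes of enteric glia, 9 passed the filter and 6 were higher in both pairs (27.8% of all genes), with a median of 0.64 in pair 1 and 0.76 in pair 2. Gfap, the classical glial filament, was at 0.114 against 1.30 CPM in pair 1 and 0.234 against 0.802 in pair 2. Sox10, the transcription factor of glia, was at 0.0286 against 0.615 CPM in pair 1 and 0.156 against 0.481 in pair 2. These were the 2 members at least 2-fold higher in both pairs, from a WT level of 1 to 6 counts. Erbb3, the most abundant gene of this list, was at 221 against 307 CPM in pair 1 and 146 against 251 in pair 2, and epithelial cells express it as well. Cnp, a myelin enzyme found in other cells too, was lower in both pairs, at 21.2 against 8.61 CPM in pair 1 and 17.5 against 13.1 in pair 2.

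Most genes of the connective tissue and vessels were higher with the muscle genes. All 10 fibroblast genes that passed the filter, of 11 listed, were higher in both pairs (27.8% of all genes), 5 at least 2-fold (3.37%). Their median was 1.44 in pair 1 and 1.13 in pair 2. Fn1, which encodes fibronectin, had the smallest p of all genes higher in KO. It was at 10.1 against 70 CPM in pair 1 and 14.2 against 55.2 in pair 2, and its log2 fold change was 2.36 (standard error 0.34), with an unadjusted p of 0.00144 and an adjusted p of 1 by edgeR, against 0.0119 by DESeq2. Grem1, a BMP antagonist made by the muscle sheets and fibroblasts near them, was at 26.1 against 71.9 CPM in pair 1 and 10.7 against 43.7 in pair 2. Col6a1, a collagen VI chain, was at 10.9 against 36.9 CPM in pair 1 and 9.56 against 26.4 in pair 2. Col6a3 and Col1a1 were the others past 2-fold, and Dcn, the gene with the highest level per length of the list, was at 178 against 218 CPM in pair 1 and 62.4 against 109 in pair 2.
Of 11 vessel genes, 8 were higher in both pairs (27.8% of all genes). Rgs5, a gene of pericytes and vascular muscle, was at 175 against 603 CPM in pair 1 and 205 against 546 in pair 2, and the groups did not overlap. Heart RNA would make up 1.05% of its level in KO replicate 1. Pecam1, an endothelial surface protein, went opposite ways, at 10.7 against 2.50 CPM in pair 1 and 5.74 against 21 in pair 2. For Pecam1 that share was 54.1%. Kdr, the VEGF receptor of endothelium, was at 2.06 against 2.73 CPM in pair 1 and 6.56 against 19.2 in pair 2. Of 6 genes of the mesothelium, the outer skin of the gut, 4 were higher in both pairs (27.8% of all genes), 2 of them at least 2-fold (3.37%), and 2 went opposite ways. Upk3b was at 18.9 against 41.1 CPM in pair 1 and 15.4 against 31.3 in pair 2. Msln was at 9.44 against 22.3 CPM in pair 1 and 9.96 against 23 in pair 2. Upk1b, close to Upk3b in level per length, was lower in pair 1 and higher in pair 2, at 22.5 against 17.9 CPM in pair 1 and 9.56 against 11.7 in pair 2. The part that the makeup of the frozen pieces had in the values of the muscle, nerve, connective tissue and mesothelium lists was not tested.

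**Figure D3:**
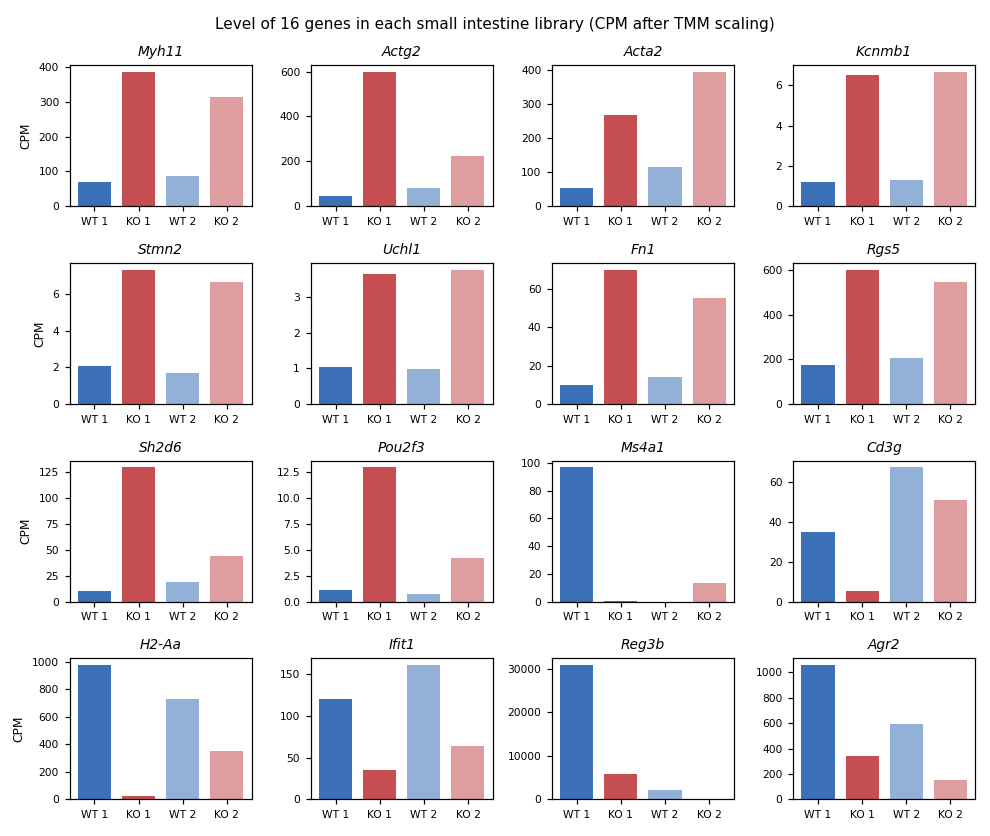
Level of 16 genes in each library, in CPM after TMM scaling; blue bars are WT, red bars KO, full colour replicate 1 and light colour replicate 2, each bar 1 library. Muscle, nerve, fibronectin, pericyte and tuft cell genes are higher in both red bars, Ms4a1 is high in WT replicate 1 alone, and H2-Aa, Ifit1, Reg3b and Agr2 are lower in KO within each number.

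Immune genes did not behave as 1 group. B cell genes went in opposite directions in the pairs, with a median log2 ratio of -6.98 in pair 1 and 2.71 in pair 2, and 14 of the 15 were lower in pair 1 and higher in pair 2 (23.3% of all genes). Ms4a1, which encodes CD20, was at 96.7 against 0.615 CPM in pair 1 and 0.0781 against 13.2 in pair 2. Cd79a, part of the B cell receptor, was at 32.6 against 0 CPM in pair 1 and 1.56 against 10.6 in pair 2. WT replicate 1 alone held B cell genes at a high level, KO replicate 2 held them at a lower one, and in KO replicate 1 and WT replicate 2, 5 and 3 of the 15 genes had 0 counts. With members at 0 set to a floor of 3 counts per library, the medians were -6.85 and 2.66. Cxcl13, the chemokine that gathers B cells into follicles, showed the same order, at 45.4 against 0.410 CPM in pair 1 and 0.898 against 11.1 in pair 2. Cr2 and Fcer2a, receptors of mature B cells, and Chst3, a sulfotransferase, followed it and were among the genes with the largest opposite ratios. Plasma cell genes had a median of -3.45 in pair 1 and 1.05 in pair 2. Igha, the heavy chain of IgA, was at 408 against 37.4 CPM in pair 1 and 486 against 2212 in pair 2. Igkc was at 548 against 49 CPM in pair 1 and 1440.3 against 2986 in pair 2. Jchain, which joins IgA into dimers, was at 586 against 133 CPM in pair 1 and 2071 against 1707 in pair 2. KO replicate 1 was the lowest of the 4 libraries for all 3. Lymphoid follicles lie at separate places along the gut, and their part in these values was not tested. The list of follicle stroma and of the M cells above follicles was mixed, with a median of -2.82 in pair 1 and 0.21 in pair 2. Of its 9 genes, 5 went opposite ways, 4 of them lower in pair 1 and higher in pair 2 (23.3% of all genes). In both pairs 3 were lower (25.5% of all genes) and 1 was higher (27.8%). At least 2-fold lower in both were 2 genes (1.52% of all genes). Ccl20, a chemokine of the follicle epithelium, was at 6.44 against 0.855 CPM in pair 1 and 23.7 against 9.22 in pair 2. Gp2, a receptor of M cells, was at 1.72 against 0 CPM in pair 1 and 3.59 against 1.16 in pair 2.

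T cell genes were lower in KO mainly in pair 1. Of 15, 11 were lower in both pairs (25.5% of all genes) and 0 were 2-fold lower in both (1.52%), with a median of -2.86 in pair 1 and -0.40 in pair 2. Cd3g was at 34.8 against 5.33 CPM in pair 1 and 67 against 50.8 in pair 2. Cd8a was at 42 against 5.74 CPM in pair 1 and 87.2 against 64.1 in pair 2, so that KO replicate 1 lay far below the other 3 libraries. The genes of intraepithelial and cytotoxic lymphocytes, the T cells that sit between enterocytes, behaved alike, with 10 of 11 lower in both pairs (25.5% of all genes) and a median of -2.38 in pair 1 and -0.63 in pair 2. Gzma, a granule protease, was at 281 against 28.1 CPM in pair 1 and 642 against 347 in pair 2. Gzmb was at 85.9 against 8.55 CPM in pair 1 and 152 against 103 in pair 2. Ccl5, a chemokine, was at 39.2 against 5.47 CPM in pair 1 and 158 against 101 in pair 2. Cd160, an activating receptor of these cells, was the 1 member at least 2-fold lower in both, at 13.2 against 5.47 CPM in pair 1 and 20.5 against 7.98 in pair 2, and it shares exon bases with Pdzk1. Genes of macrophages and dendritic cells were lower in pair 1 and higher in pair 2 for 14 of 17 (23.3% of all genes), with Lyz2 at 156 against 24.4 CPM in pair 1 and 76.4 against 111 in pair 2. C1qa was at 12.2 against 5.44 CPM in pair 1 and 16.8 against 36.2 in pair 2. KO replicate 1 was thus low in B cell, T cell, plasma cell and macrophage genes alike.

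Most interferon-induced genes were lower in KO in both pairs. Interferons made against viruses act through STAT and IRF factors on a common set of antiviral genes, and the gut holds a steady level of this response. Of 32 such genes, all of which passed the filter, 28 were lower in both pairs (25.5% of all genes). Of these, 8 were at least 2-fold lower in both (Ifit1bl1, Isg15, Ifit1, Zbp1, Ddx60, Gbp7, Herc6 and Ifi44), against 1.52% of all genes. The median log2 ratio was -0.81 in pair 1 and -0.63 in pair 2. Summed, they were at 2137 against 973 CPM in pair 1 and 2136 against 1239 in pair 2, and the KO libraries were the 2 lowest for 20 of the 32 (11.6% of all genes).
Ifit1bl1 (ENSMUSG00000079339, chr19:34592891-34601956) had the smallest p of all genes lower in KO. It was at 529 against 34.7 CPM in pair 1 and 189.9 against 38.8 in pair 2, and the groups did not overlap. Its log2 fold change was -3.29 (standard error 0.63), and the adjusted p was 1 by edgeR and 0.00327 by DESeq2. Without WT replicate 1 the log2 fold change of Ifit1bl1 was -2.37, and without WT replicate 2 it was -3.86. Reads could be shared with its near copies in the Ifit cluster. Ifit1, which binds viral RNA without the host's cap methylation, was at 119.5 against 35.2 CPM in pair 1 and 160.1 against 63.6 in pair 2. Isg15, a ubiquitin-like modifier, was at 36.8 against 15.6 CPM in pair 1 and 72.1 against 34.8 in pair 2. Zbp1, a sensor of Z-form nucleic acid, was at 117 against 6.56 CPM in pair 1 and 98.6 against 36.6 in pair 2. Ifi44 was at 8.38 against 1.88 CPM in pair 1 and 11.5 against 3.53 in pair 2. Others had smaller ratios. Parp14, an ADP-ribosyltransferase, was at 251 against 182 CPM in pair 1 and 224 against 167 in pair 2. Irf7, the master factor of the response, was at 101 against 93.4 CPM in pair 1 and 141 against 89.9 in pair 2. Mx1 and Cmpk2 were higher in pair 1 and lower in pair 2, with Mx1 at 25.1 against 41.4 CPM in pair 1 and 31.3 against 17.1 in pair 2. Rsad2, which makes an antiviral nucleotide, was at 18.8 against 11 CPM in pair 1 and 36.3 against 15.3 in pair 2.
The promoters of these genes are known for the interferon-stimulated response element (ISRE). Its letters GAAANNGAAA were searched on both strands of the 250 bases before the start, where N is any base. They were present in 13 of the 23 list members with a RefSeq promoter (56.5%), against 936 of 27025 genes (3.46%). The list was drawn up from known interferon targets, so that this share describes the list and not the knockout. The stretches of 3 members with lower levels in KO are shown with their matches in capitals. Isg15 (chr4:156200819-156201068, minus strand) has 3 overlapping matches that begin 78, 72 and 66 bases before the start, Ifit1 (chr19:34640639-34640888, plus strand) has 2 on the opposite strand that begin 104 and 85 bases before it, and Rsad2 (chr12:26456453-26456702, minus strand) has 1 on the opposite strand at 120 bases. Each is printed from 5′ to 3′ on the strand of its gene.
Isg15: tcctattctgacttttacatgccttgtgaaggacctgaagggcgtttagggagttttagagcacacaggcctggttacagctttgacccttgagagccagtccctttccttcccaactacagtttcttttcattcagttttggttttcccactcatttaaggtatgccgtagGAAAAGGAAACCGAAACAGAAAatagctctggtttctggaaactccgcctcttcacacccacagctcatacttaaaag
Ifit1: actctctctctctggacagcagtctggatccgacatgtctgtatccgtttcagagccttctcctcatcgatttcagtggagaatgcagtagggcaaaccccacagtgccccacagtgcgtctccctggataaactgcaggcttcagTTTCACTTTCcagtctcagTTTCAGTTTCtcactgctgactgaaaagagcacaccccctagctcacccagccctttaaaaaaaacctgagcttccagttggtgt
Rsad2: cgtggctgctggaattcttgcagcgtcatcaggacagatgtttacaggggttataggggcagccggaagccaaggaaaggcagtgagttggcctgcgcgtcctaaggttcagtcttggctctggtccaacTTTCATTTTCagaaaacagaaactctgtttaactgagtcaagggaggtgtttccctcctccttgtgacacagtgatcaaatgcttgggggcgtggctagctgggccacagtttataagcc

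MHC class II genes were lower in KO by a very unequal amount at the 2 positions. These genes present antigen to CD4 T cells, and besides dendritic and B cells the enterocytes make them under interferon gamma. All 7 were lower in both pairs (25.5% of all genes), and for all 7 the KO libraries were the 2 lowest (11.6% of all genes). The median log2 ratio was -4.69 in pair 1 and -0.84 in pair 2. H2-Aa was at 975 against 27.6 CPM in pair 1 and 731 against 349.6 in pair 2. Cd74, the invariant chain, was at 378 against 14.6 CPM in pair 1 and 359 against 188 in pair 2. Ciita, the factor that switches these genes on, was at 54.5 against 1.88 CPM in pair 1 and 22.4 against 14.9 in pair 2. H2-Aa and H2-DMb1 were at least 2-fold lower in both pairs (1.52% of all genes). H2-DMb1 was at 99.2 against 2.80 CPM in pair 1 and 84 against 30.7 in pair 2. KO replicate 1 held far less of each than the other 3 libraries. The smallest unadjusted p of the 7 was 0.0702.
Genes induced by interferon gamma, a list written after its first members had been seen, were lower in both pairs for 26 of 32 (25.5% of all genes). Of these, 9 were at least 2-fold lower in both (1.52% of all genes). The median of the list was -2.23 in pair 1 and -0.34 in pair 2. It shares members with the interferon response list, among them Gbp2, Gbp3 and Gbp7, so that Gbp7 counts among the 2-fold lower genes of both. Ubd, a ubiquitin-like protein, was at 98.8 against 0.923 CPM in pair 1 and 36.3 against 6.85 in pair 2. Ido1, which breaks down tryptophan, was at 115 against 7.66 CPM in pair 1 and 116 against 37.2 in pair 2. Nlrc5, the activator of MHC class I genes, was at 65.6 against 4.24 CPM in pair 1 and 41 against 13.1 in pair 2. B2m, the light chain of MHC class I, was at 2299 against 1286 CPM in pair 1 and 4263 against 3713 in pair 2, and H2-K1 was lower in pair 1 and higher in pair 2, at 1024 against 643 CPM in pair 1 and 1907 against 2358 in pair 2. The MHC class II and lymphocyte genes moved together in pair 1, and the part of immune cells in this result was not tested. In pair 2 the T cell list had a median of -0.40, the B cell list was higher in KO, and the MHC class II list had a median of -0.84.
The Y box of MHC class II promoters, CTGATTGG on either strand, was present in 2 of the 4 members with a RefSeq promoter (50%). It was present in 1198 of 27025 genes (4.43%) and in 735 of the 12294 that passed the filter in the small intestine (5.98%). The box is known from these promoters, so that its share describes the list and not the knockout. H2-Aa (chr17:34287824-34288073, minus strand) and H2-Eb1 (chr17:34305617-34305866, plus strand) are shown because they carry it, in capitals, beginning 51 and 62 bases before the start.
H2-Aa: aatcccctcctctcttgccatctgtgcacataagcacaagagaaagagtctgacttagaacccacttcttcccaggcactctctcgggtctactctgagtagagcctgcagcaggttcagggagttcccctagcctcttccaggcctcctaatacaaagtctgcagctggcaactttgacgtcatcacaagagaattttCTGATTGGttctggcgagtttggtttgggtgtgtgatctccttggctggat
H2-Eb1: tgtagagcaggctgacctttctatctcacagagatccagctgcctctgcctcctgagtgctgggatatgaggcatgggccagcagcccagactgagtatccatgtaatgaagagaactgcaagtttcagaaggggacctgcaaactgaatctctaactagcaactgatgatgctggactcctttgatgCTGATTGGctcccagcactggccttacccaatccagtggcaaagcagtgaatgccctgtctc

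The bulk of the epithelium was at a like level in both genotypes. The 15 genes of all gut epithelial cells had a median log2 ratio of 0.13 in pair 1 and -0.04 in pair 2, none was 2-fold in both pairs, and they summed to 15578 against 16191 CPM in pair 1 and 13285 against 12144 in pair 2. Epcam was at 1412 against 1496 CPM in pair 1 and 866 against 936 in pair 2. Vil1, the villin of microvilli, was at 1355 against 1722 CPM in pair 1 and 1616 against 1646 in pair 2. Enterocyte genes were somewhat higher in pair 1, with 18 of 28 higher in both pairs (27.8% of all genes) and a median of 0.66 in pair 1 and 0.08 in pair 2. Fabp2 was at 5334 against 7875 CPM in pair 1 and 10758 against 10339 in pair 2. Apoa1 was at 3916 against 6347 CPM in pair 1 and 8704 against 13928 in pair 2. Sis, the sucrase-isomaltase, was at 2148 against 4552 CPM in pair 1 and 4961 against 5076 in pair 2. Slc2a5, the fructose transporter, and Lct, lactase, were the members at least 2-fold higher in both pairs (3.37% of all genes). Slc2a5 was at 18.9 against 66 CPM in pair 1 and 250.4 against 912 in pair 2. Lct was at 672 and 1836 CPM in pair 2, but the libraries of pair 1 had 1 and 4 counts.

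Secretory cells differed among themselves. Goblet cell genes were lower in both pairs for 8 of 12 (25.5% of all genes), with a median of -0.61 in pair 1 and -0.51 in pair 2. Agr2, an enzyme that folds mucin, was the 1 member at least 2-fold lower in both (1.52% of all genes). It was at 1057 against 344 CPM in pair 1 and 593 against 154 in pair 2. Muc2, the main mucin, was at 2332 against 1578 CPM in pair 1 and 871 against 886 in pair 2. Tff3 was at 2174 against 1214 CPM in pair 1 and 2041 against 1380.3 in pair 2. Zg16, a lectin of the mucus, was at 5366 against 2468 CPM in pair 1 and 5239 against 3853 in pair 2. The antibacterial lectins Reg3b and Reg3g were among the genes with the largest difference at both positions. Reg3b, which had the highest mean CPM of all genes, was at 30829 against 5834 CPM in pair 1 and 2245 against 78.1 in pair 2. Reg3g was at 14013 against 1192 CPM in pair 1 and 731 against 28.9 in pair 2. The libraries numbered 1 were far above those numbered 2 in both genotypes, so that KO replicate 1 exceeded WT replicate 2 for both genes, and the groups overlapped. The log2 fold changes were -2.48 (standard error 2.25) and -3.59 (standard error 2.25), which without WT replicate 1 were 0.39 and -0.27 and without KO replicate 1 were -7.72 and -7.99. Of their relatives, Reg3a was at 77.1 against 56.9 CPM in pair 1 and 50.4 against 37.9 in pair 2. Reg4 was at 48 against 183 CPM in pair 1 and 119.7 against 129.7 in pair 2.
Paneth cell genes went with position, with a median log2 ratio of replicate 2 over replicate 1 of -3.98 in WT and -2.63 in KO, whereas the median between genotypes was -0.70 in pair 1 and 0.68 in pair 2. Of the 15, 3 were higher and 4 lower in both pairs (27.8% and 25.5% of all genes). Lyz1, the lysozyme of Paneth cells, was at 2296 against 471 CPM in pair 1 and 102 against 175 in pair 2. Ang4, an antimicrobial ribonuclease, was the 1 member at least 2-fold higher in both pairs (3.37% of all genes), by 4.57-fold in pair 1 and 5.08-fold in pair 2, at 158 against 719.6 CPM in pair 1 and 26.1 against 133 in pair 2. Reads of the Defa genes could be split between near-identical copies.
Tuft cell genes were higher in KO at both positions. Of 10 listed, 9 passed the filter, and all 9 were higher in both pairs (27.8% of all genes), 8 of them at least 2-fold in both (3.37%). Their median was 3.21 in pair 1 and 1.52 in pair 2. Both KO libraries lay above both WT libraries for all 9 (13.6% of all genes). Pou2f3, the transcription factor on which tuft cells depend, was at 1.17 against 13 CPM in pair 1 and 0.781 against 4.21 in pair 2. Dclk1, a kinase that marks them, was at 11.1 against 63.9 CPM in pair 1 and 9.14 against 20.1 in pair 2. Trpm5, the cation channel of taste signalling, was at 8.70 against 93.2 CPM in pair 1 and 17.3 against 42.8 in pair 2. Sh2d6 was at 10 against 129.7 CPM in pair 1 and 18.8 against 44.1 in pair 2. Alox5, which starts leukotriene synthesis, was at 0.658 against 13.4 CPM in pair 1 and 1.91 against 6.09 in pair 2. The log2 fold change of Pou2f3 was 3.13 (standard error 0.77), and the adjusted p was 1 by edgeR and 0.0595 by DESeq2. Siglecf and Rgs13, entered under granulocytes and germinal centres, are known from tuft cells as well. Siglecf was at 3.55 against 40.7 CPM in pair 1 and 5.78 against 17.4 in pair 2. Rgs13 was at 14.7 against 113 CPM in pair 1 and 8.82 against 19.3 in pair 2.
Genes of dividing cells went opposite ways in the pairs or were lower in both. Of 20 proliferation genes, 13 were lower in pair 1 and higher in pair 2 (23.3% of all genes), 7 were lower in both (25.5%), and the median was -1.44 in pair 1 and 0.11 in pair 2. Mki67 was at 207 against 78.4 CPM in pair 1 and 48.1 against 49 in pair 2, so that WT replicate 1 alone stood out. Pcna, the most abundant gene of this list, was at 130.5 against 117.9 CPM in pair 1 and 121.7 against 113.1 in pair 2. WT replicate 1 was also the library high in B cell genes, and the part of B cells in the proliferation genes was not tested. Lgr5, the marker of crypt stem cells, was at 9.38 against 7.21 CPM in pair 1 and 2.89 against 3.37 in pair 2. Olfm4 was at 254 against 78.9 CPM in pair 1 and 69.2 against 71.4 in pair 2.

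**Figure D4:**
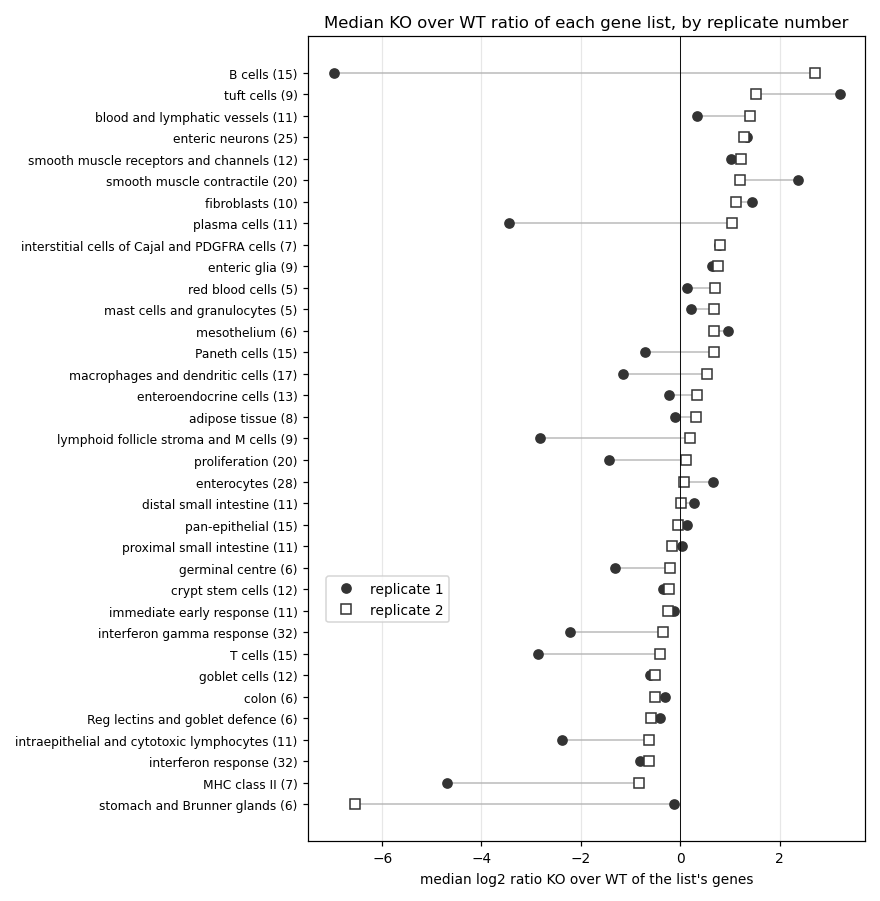
Median log2 ratio of KO over WT of each gene list (number of genes in brackets) in replicate 1 (filled circles) and replicate 2 (open squares). Muscle, nerve, fibroblast and tuft cell lists lie above 0 in both, MHC class II and interferon lists below 0 in both, and B cell and plasma cell lists on opposite sides.

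The 10 genes with the largest ratio in their weaker pair, among those with a mean of at least 5 CPM, were Vmn2r26, Gm11946, Rgs22, Duoxa2, Cyp2u1, Mptx1, Ang4, Myom1, Dtna and Slc5a4b for the higher direction. Vmn2r26, a receptor of the vomeronasal family, was at 0.887 against 18.5 CPM in pair 1 and 0.0781 against 1.56 in pair 2. Rgs22, a regulator of G protein signalling, was at 1.40 against 14.2 CPM in pair 1 and 0.781 against 5.21 in pair 2. Duoxa2, the maturation factor of the dual oxidase that makes hydrogen peroxide at the gut surface, was at 42.3 against 226 CPM in pair 1 and 0.273 against 2.61 in pair 2, and WT replicate 1 lay above KO replicate 2. Mptx1, a mucosal pentraxin, was at 0.629 against 65.5 CPM in pair 1 and 2.69 against 12.6 in pair 2. Gm11946 shares exon bases with Smtn, on the other strand, and the counting command stored with the table names no strand setting. Myom1 and Dtna belong to the muscle cytoskeleton, with Myom1 at 9.04 against 41.4 CPM in pair 1 and 3.16 against 14.2 in pair 2. Heart RNA at 0.632% would make up 23.5% of Myom1 and 6.5% of Dtna in KO replicate 1.
In the lower direction the 10 were Gm8714, Reg3g, Ctse, Igkv6-23, A4gnt, Igkv4-57, Igkv4-63, Anxa10, Reg3b and Ubd. Gm8714 had 752 and 36 counts in WT replicates 1 and 2 and 0 in both KO libraries. At a floor of 3 counts per library, it was at least 210-fold lower in pair 1 and at least 11.7-fold lower in pair 2. A4gnt, which makes a glycan of gastric gland mucin, was at 1.26 against 0.0684 CPM in pair 1 and 21.4 against 0.0802 in pair 2. Ctse, an aspartic protease of the stomach, was at 1.34 against 0 CPM in pair 1 and 96.2 against 8.82 in pair 2. Anxa10 was at 0.343 against 0 CPM in pair 1 and 38.6 against 0.882 in pair 2. These 3 were highest in WT replicate 2, the library with stomach and Brunner gland transcripts, as was Nkx6-3, a factor of the gastric antrum, at 0.0286 against 0.308 CPM in pair 1 and 27.4 against 2.45 in pair 2. The 3 Igkv genes are variable segments of antibody light chains. The 5 genes with the smallest p in the fit were Fn1, Myh11, Itprid1, Synpo2 and Cryab in the higher and Ifit1bl1, B3galt5, Ighv1-39, Trbv1 and Abca1 in the lower direction. Cryab, a small heat shock protein of muscle and lens, was at 3.60 against 22 CPM in pair 1 and 5.15 against 17 in pair 2, and heart RNA at 0.632% would make up 40.7% of its level in KO replicate 1. B3galt5, a galactosyltransferase, was at 32.7 against 1.68 CPM in pair 1 and 12.3 against 2.65 in pair 2. Abca1, which exports cholesterol, was at 35.6 against 8.99 CPM in pair 1 and 33.4 against 13.9 in pair 2. Among the largest opposite ratios were those of Nkx6-3, U90926, Slc5a12, Gm42686 and Crybb3, higher in pair 1 alone, and of Ms4a1, Fcer2a, Cr2 and Chst3, higher in pair 2 alone.

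Whether the small intestine differed from the other tissues was tested in 1 fit of all 20 libraries, as the KO effect in the small intestine minus the mean effect in the liver, spleen, kidney and heart. Of 23159 genes, 1 passed an adjusted p under 0.1 in the positive direction (0.00432%) and 0 in the negative (0%). It was Frmd5, a FERM domain gene, with a difference of 5.27 on the log2 scale and an adjusted p of 0.045 in edgeR's fit. It was at 0.114 against 1.16 CPM in pair 1 and 0.0781 against 0.802 in pair 2, from 4 and 2 counts in the WT and 34 and 20 in the KO libraries. The difference is larger than the log2 fold change of 3.28 in the small intestine alone, because the fit also took in the liver, with 2 and 6 counts in WT and 0 in both KO libraries, and the kidney, with 9 and 10 in WT and 2 in both KO libraries. In neither of these did the gene pass the filter on its own. In the spleen and heart its log2 fold changes were -0.0034 and -0.13, and against the mean of these alone, a comparison chosen after seeing the data, the difference was 3.39 with an adjusted p of 0.358. The heart libraries held 221 CPM on average, of which 0.632% is 112% of the level in KO replicate 1. Without WT replicate 1, 0 genes were called in the positive and 1 in the negative direction, and without KO replicate 2 these were 120 and 136. The next genes by p were Msrb3, Akap6, Slc8a1 and Synpo2, each with an adjusted p of 0.164. Slc8a1, the sodium-calcium exchanger of muscle cells, was at 6.09 against 21.3 CPM in pair 1 and 6.56 against 19.6 in pair 2, and heart RNA would make up 13.2% of its level in KO replicate 1. Contractile genes of smooth muscle, whose median log2 fold change was 1.87 in the fit of the small intestine, had medians of 0.13 (liver), -0.20 (spleen), -0.0017 (kidney) and -0.05 (heart). The interferon response list, at -0.65 in the small intestine, had medians of 0.28, 0.32, -0.05 and 0.13 in these tissues. Of the tuft cell list, at 2.39 in the small intestine, 2, 8, 4 and 6 genes could be tested in the same 4 tissues, with medians of -0.51, -0.09, 0.27 and -0.32.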

How the data were processed

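RNA was extracted from snap-frozen, ground tissue with TRIzol and treated with DNase, and stranded libraries were made from poly(A) RNA. The deposited values are raw counts per gene, which the authors made by trimming reads with cutadapt, mapping them with HISAT2 (v2.1.0) to mm10 and counting exons with featureCounts (v2.0.1) on the Ensembl GRCm38.102 annotation. The stored command names no paired or strand setting, whereas the methods name a strand option, so that reads of overlapping genes may not be separated and both mates of a pair may have been counted. Of counts between 10 and 50, 57.9% to 58.8% per library were even. The 4 small intestine libraries held 26414043 to 32121286 counts.

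The counts were TMM-scaled and tested in edgeR (v4.0.16, limma v3.58.1, R v4.3.3) by the quasi-likelihood test without a block, after filterByExpr (17680 of 55401 genes). The thresholds were an adjusted p under 0.1 and 2-fold. DESeq2 (v1.42.0), the tool of the study, was an alternative, because the quasi-likelihood test is the main test for counts here. Ratios within a replicate number used log2 CPM with a prior count of 2, so that they understate changes of low genes. Levels per length were TPM from the same counts. Heart shares used CPM by library size. Figures were drawn with matplotlib (v3.10.9), and promoters were read from RefSeq (GRCm38.p6).

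Named are Nsun6, the 10 genes each way with the largest ratio in the weaker pair among those with a mean of at least 5 CPM, 5 each way with opposite ratios, the members of each list with the highest level per length or at least 2-fold in both pairs, 5 each way with the smallest p, and the 5 with the smallest p of the difference between tissues. Other list members were chosen after their values were seen. A few genes that the rule names are not reported here. The comparison, the 36 gene lists and the 2 added ones (heart muscle and interferon gamma response) were chosen with earlier results of these data known. Alternatives were other tools, scalings, prior counts, filters and thresholds, a replicate block, and leaving out each library.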

Additional observations from a re-analysis of the deposited data

Results flagged for a closer look

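Frmd5 was the 1 gene whose KO effect in the small intestine differed from the mean of the other 4 tissues, by 5.27 on the log2 scale, with an adjusted p of 0.045 in edgeR's fit of all 20 libraries. The mean included the liver and kidney, where the gene had at most 10 counts in any library and fewer in KO than in WT, and against the spleen and heart alone the difference was 3.39 with an adjusted p of 0.358, so that the call was lost. It was higher in both KO libraries of the small intestine. Its adjusted p was 0.0969 with tissue and replicate number as a block, 0.296 without WT replicate 1, 0.0873 without WT replicate 2, 0.0889 without KO replicate 1 and 0.00712 without KO replicate 2, so that leaving out WT replicate 1 ended it as well. With at least 10 counts in every library Frmd5 was not tested, and the 4 genes called in the positive direction there were others. At 0.632% of its heart level, heart RNA would make up 112% of Frmd5 in KO replicate 1. The same estimate gives 160% for the heart muscle gene Myh6 and 80.6% for Fabp3. In KO replicate 2 the heart muscle genes stood at 0.0203% of their heart level. The part of heart RNA in the Frmd5 level of either KO library was not tested.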

How the results depend on the processing

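The number of genes called in the small intestine depended on the tool. edgeR called 0 in each direction under each scaling, filter, threshold, set of libraries and left-out library tried, whereas DESeq2 called 36 higher and 15 lower. In a check of the pairing, the deviations of same-numbered libraries from their group means correlated at 0.57, but the labels do not say what a number marks. With a replicate block edgeR called 0 genes, although 662 higher and 369 lower had an unadjusted p under 0.05, and DESeq2 with the block called 189 higher and 156 lower. The genes at least 2-fold in both pairs numbered 363 higher and 164 lower with a prior count of 10, 353 and 120 with at least 10 counts in every library, 948 and 652 without a filter, 1353 and 721 at 1.5-fold and 56 and 54 at 4-fold. Without KO replicate 1 or WT replicate 2, alternatives chosen after seeing the data that leave 1 pair, they ranged from 1791 to 1897 higher and from 1097 to 2013 lower. In the fit, leaving out each library moved the median log2 fold change from 1.16 to 1.78 for enteric neurons, from 0.71 to 1.02 for enteric glia, from -1.22 to -0.52 for the interferon response, from -3.30 to -0.27 for T cells and from -1.01 to -0.27 for goblet cells. It changed direction for B cells (-6.33 to 1.95), plasma cells (-3.62 to 0.37, with 0.08 without WT replicate 1), enterocytes (-0.048 to 0.94) and Paneth cells (-2.77 to 3.24). With log2(TPM + 0.1), the median was 1.29 for enteric neurons, -0.54 for goblet cells and 0.0018 for Paneth cells, and with at least 10 counts in every library it was 1.27 for enteric neurons. Leaving out 1 library, the fold change of Nsun6 ranged from -0.63 to 0.22 and that of Reg3b from -7.72 to 0.39, and that of Reg3g from -7.99 to -0.27, on the log2 scale. Of 171 genes named, the fold change reversed for 20 without WT replicate 1, 15 without WT replicate 2, 16 without KO replicate 1, 14 without KO replicate 2 and 9 with the replicate block. Genes that differed from the other tissues numbered 4 in the positive direction with at least 10 counts in every library, 0 against the spleen and heart alone, an alternative chosen after seeing the data, and from 0 to 120 positive and 0 to 136 negative with a small intestine library left out. The cause of these changes was not tested. With 2 libraries per genotype, the spread between them limits the precision, and genes of a few counts are limited by depth as well.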

Other observations

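At any size, 27.8% of all genes were higher and 25.5% lower in both pairs. Of 13 enteroendocrine genes, 4 were higher and 2 lower in both pairs. The 8 adipose genes summed to 163 against 172 CPM in pair 1 and 182 against 193 in pair 2, and the 5 red blood cell genes to 24.8 against 25 and 59.8 against 119. In KO replicate 1, heart RNA at 0.632% would make up 77.3% of Hbb-bt, 67% of Hba-a1, 64.3% of Hbb-bs and 30% of Hba-a2. The 4 genes of the exocrine pancreas that passed the filter, of 17 listed, summed to 33.3 against 45.4 and 46.4 against 49.7 CPM, with 2 genes higher and 0 lower in both pairs. Of 11 immediate early genes, 2 were higher and 4 lower in both pairs. Of 12 crypt stem cell genes, 6 were lower in both pairs and 1 was higher. Of 6 germinal centre genes, 4 were lower and 1 was higher in both pairs, and of 6 colon genes, 1 was at least 2-fold higher and 2 at least 2-fold lower in both (3.37% and 1.52% of all genes). All 37 mitochondrially encoded genes had 0 counts in each of the 4 libraries, so that the 13 of that list gave no value.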
